A study of Mus musculus with 8 samples.

Results

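The genes described here are the mouse chemokine ligands with a probe on the array, other than Cxcl12, which was left out by the rule that chose them. The members were taken by gene name (Ccl, Cxcl, Cx3cl and Xcl ligands with Pf4 and Ppbp), without the use of measured values, and came to 38 of the 36492 genes or transcripts with a probe. RNA came from carotid arteries 14 days after wire injury, in which a wire passed through the vessel strips its endothelium. The control group was 4 miR-126+/+/ApoE-/- mice and the other group 4 miR-126-/-/ApoE-/- mice, with 1 array per mouse. All 8 mice were female, 6 weeks old by their labels, of mixed genetic background and on a western-type diet, and all lacked ApoE, so no group had normal lipoprotein clearance or an uninjured vessel. The labels do not say whether the deletion of miR-126 is limited to a cell type. The comparison asks how the injured artery's RNA differs when miR-126 is absent.

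Chemokines are small secreted proteins that bind G protein-coupled receptors on leukocytes and guide them into tissue. Inflamed smooth muscle cells, macrophages and platelets supply several of them to an injured artery, and monocytes, neutrophils and T cells carry the matching receptors. miR-126 is a microRNA made mostly by endothelial cells from an intron of Egfl7, and a microRNA recognises its target RNAs chiefly through its seed. The deleted microRNA is shown here with the seed, bases 2 to 8, in capitals, as RefSeq gives it at chr2:26591402-26591423 on the plus strand of GRCm38.p6.

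mmu-miR-126a-3p: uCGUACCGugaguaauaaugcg

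Each array measured Cy3-labelled RNA in 1 colour, and 55.9% to 61.5% of its probes were well above background, with 0 saturated spots. The array's 75th percentile of signal, to which every level below is set, ran from 619.7 to 864.6 intensity units. All arrays shared 1 slide and 1 scan. Row 1 of the slide held the controls and row 2 held the miR-126-/- mice, so genotype and row cannot be told apart, and the scanner's measure of spatial trend was 2.05 to 2.25 in row 1 and 2.35 to 3.04 in row 2. No probe carried the name of miR-126 (0 probes), so the deletion itself was not checked. The level of its host gene Egfl7 was 5.53 to 5.90 on the control arrays and 6.07 to 6.43 on the others, and the difference did not pass (adjusted p = 0.258, limma). Cells of a type and RNA per cell cannot be told apart in such whole-vessel samples.

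Of the 38 ligands, 32 passed the filter, which asked in either genotype for signal well above background on 3 or more of its 4 arrays, and 30 of these were above background on all 8 arrays. Ccl20 and Ccl22 were not well above background on any array, and Ccl1, Ccl26, Ccl28 and Cxcl15 were on 1 or 2. A level is log2 of a probe's signal over the 75th percentile of its array, and a difference is the mean of miR-126-/- minus the mean of miR-126+/+ with its standard error, 4 mice a group. All 10 smooth muscle and all 10 endothelial markers listed passed the same filter. Levels of different probes are not comparable with one another.

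None of the 32 tested ligands passed an adjusted p of 0.05 between the genotypes (0 called by limma with Benjamini-Hochberg adjustment over 23830 genes, of which 27, or 0.113%, were called). At an unadjusted p under 0.05 stood 3 ligands, Ccl9, Ccl17 and Cxcl17, all with a difference below 0. Cxcl17 passed the filter only through the controls, where it was higher, and under a filter of all 4 arrays of a genotype it was not tested and 2 remained. The share of 3 in 32, 9.38%, was close to the 10.2% of all genes, and for the lower direction alone the share of all genes was 3.84%. The fitted difference was below 0 for 21 ligands and above 0 for 11, with a median of -0.09 beside -0.0050 over all genes. Differences ran from -0.80 for Ccl17 to 0.87 for Ccl25, so 0 ligands reached a 2-fold difference between genotype means. Only Ccl9 had genotypes that did not overlap, 1 of 32 (3.12%), where 6.42% of all genes had none and 2.56% had none with miR-126-/- lower.

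**Figure D1:**
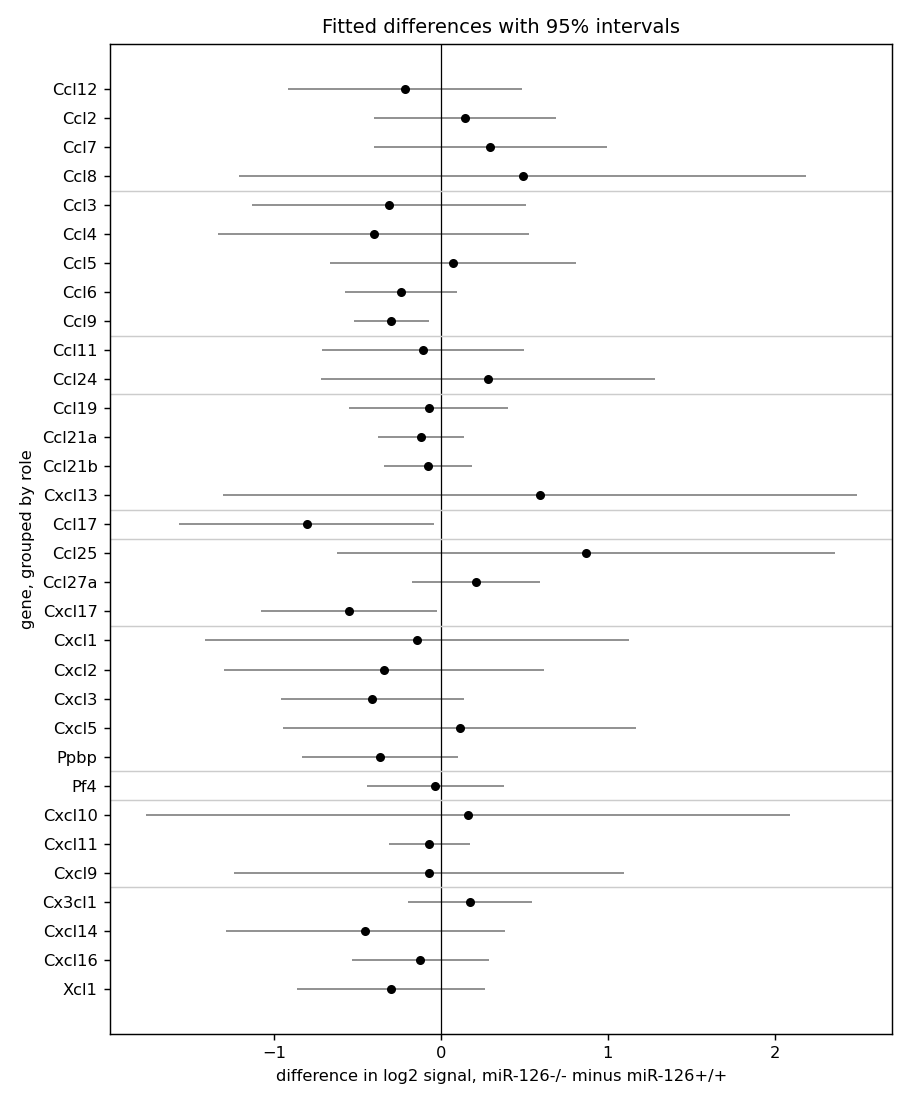
Fitted difference in log2 signal (horizontal axis, miR-126-/- minus miR-126+/+) for each of the 32 tested chemokine ligand genes, grouped by role, with 4 mice per genotype. Points are estimates and bars are unadjusted 95% intervals from limma, and only those of Ccl9, Ccl17 and Cxcl17 leave out 0.

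The ligands varied more from mouse to mouse than most genes. The median SD within a genotype was 0.45 for the 32 ligands and 0.22 for all genes, and 27 of the 32 lay above the latter. Between the highest and the lowest mouse 21 ligands differed by 2-fold or more and 8 by 4-fold or more. The mouse with the most ligands at their highest level was miR-126+/+ 3, on which 14 of the 32 ligands (43.8%) had their highest level, as did 27.0% of all genes. These were Ccl2, Ccl3, Ccl4, Ccl6, Ccl9, Ccl17, Ccl19, Cxcl1, Cxcl2, Cxcl3, Cxcl5, Cxcl11, Cxcl13 and Cxcl16. Cxcl11 was counted by its brightest probe, and its second probe was highest on miR-126+/+ 4. With each ligand set to its own mean, their median was 0.31 on that array and -0.16 to 0.03 on the other 7, while over all tested genes the medians were 0.05 and -0.05 to 0.03. The same array had the lowest 75th percentile of signal, 619.7, and the lowest share of probes above background, 55.9%, and their part in the ligand levels was not tested. Without that array the median difference of the ligands was -0.021, with 15 above 0.

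**Figure D2:**
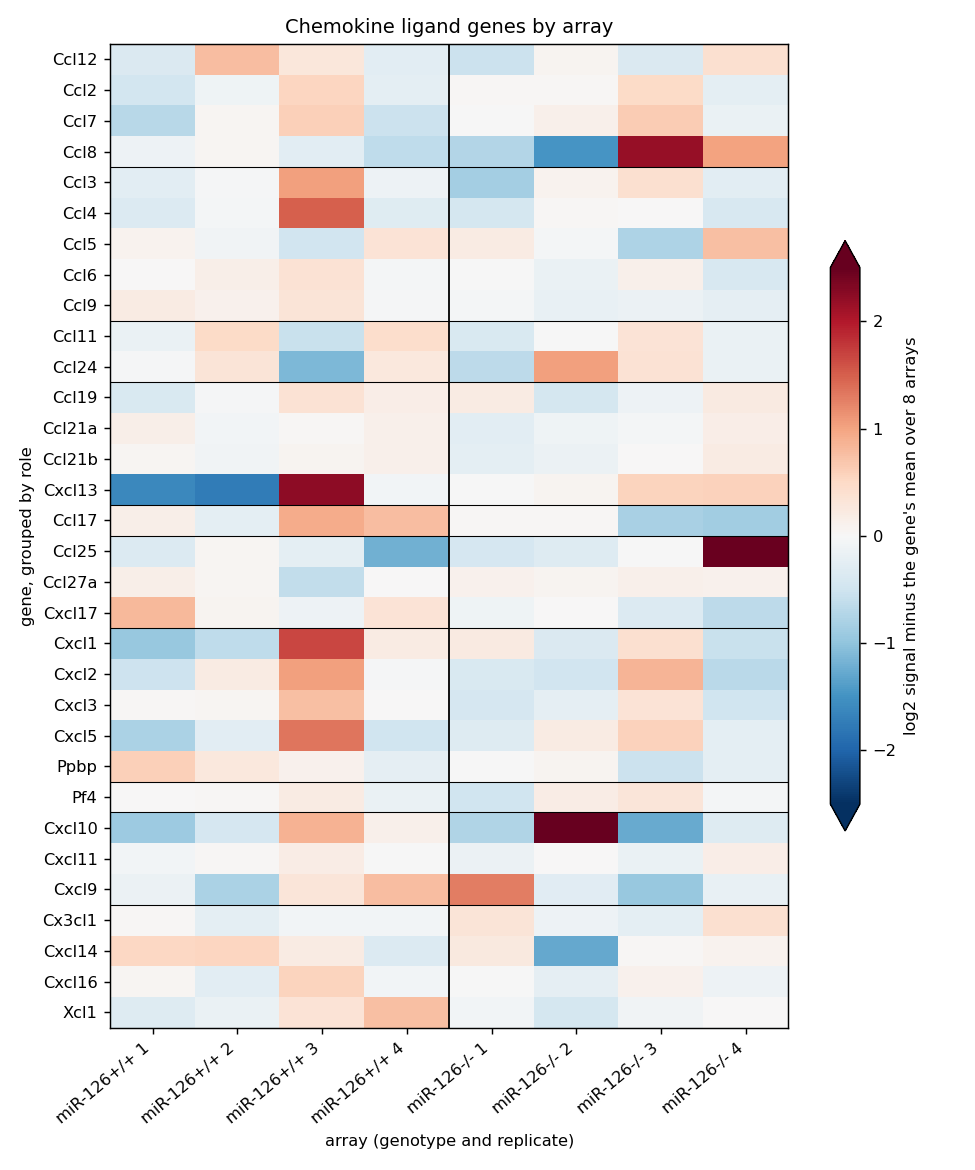
Deviation of each of the 32 tested ligands (rows, grouped by role) from its own mean over 8 arrays (columns), in log2 units, with the colour scale ending at 2.5 in each direction. The column miR-126+/+ 3 is red for most CXCR2 ligands and for Ccl3 and Ccl4, and single red cells mark Ccl8 on miR-126-/- 3, Cxcl10 on miR-126-/- 2 and Ccl25 on miR-126-/- 4.

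Ccl9, also called MIP-1 gamma, is a CCR1 ligand that attracts myeloid cells, and its probe lies at chr11:83388223-83388282 (mm9). Its level was 5.38, 5.29, 5.50 and 5.16 in the miR-126+/+ mice and 5.13, 5.0, 5.04 and 4.96 in the miR-126-/- mice. The highest miR-126-/- mouse lay just under the lowest control. The difference was -0.30 ± 0.10, which is 1.23-fold, with an unadjusted p of 0.0153 and an adjusted p of 0.342 (limma). With the mean of the adipocyte markers as a covariate it was -0.04. That mean was -1.30 to 0.0020 in controls and 0.215 to 1.06 without miR-126, without overlap. Covariate and genotype can therefore not be told apart well in such a fit.

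Ccl9 lies on chromosome 11 beside Ccl3, Ccl4, Ccl5 and Ccl6. Of the 5 genes of this cluster 4 had a difference below 0, with a median of -0.30, which was -0.08 without control mouse 3. Ccl6, a further CCR1 ligand of myeloid cells, was at 5.96, 6.10, 6.31 and 5.89 in controls and 5.93, 5.77, 6.07 and 5.54 without miR-126. The genotypes overlapped, and the difference was -0.24 ± 0.14. Ccl4, known as MIP-1 beta, was at 2.31, 2.62, 4.16 and 2.35 in controls and 2.21, 2.69, 2.66 and 2.26 without miR-126. Apart from control mouse 3 all values lay within 2.21 to 2.69, and the difference of -0.40 ± 0.40 was 0.03 when that mouse was left out. Ccl3, or MIP-1 alpha, differed by -0.31 ± 0.35, and by -0.021 without control mouse 3, in which it was highest, or -0.08 without miR-126-/- mouse 1. Ccl5, or RANTES, a product of T cells and platelets, differed by 0.07 ± 0.32.

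Ligands of CCR2 draw inflammatory monocytes from blood, and Ccl2 is the member best known in injured arteries. Ccl2 was at 3.59, 3.94, 4.57 and 3.79 in miR-126+/+ mice and 4.07, 4.07, 4.53 and 3.80 in miR-126-/- mice. The groups covered nearly the same range, and the difference of 0.14 ± 0.24 had an interval from -0.40 to 0.69. This probe was printed in 10 spots, and the SD between spots of 1 array was 0.039 to 0.105, well under the spread between mice. Ccl7, encoded next to Ccl2, differed by 0.30 ± 0.30 and Ccl12, its mouse paralogue, by -0.21 ± 0.30.

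Ccl8, encoded in the same chromosome 11 cluster, was at 4.42, 4.60, 4.27 and 3.90 in controls and 3.82, 3.06, 6.72 and 5.54 in miR-126-/- mice. The miR-126-/- mice held both the lowest and the highest levels, and the SD was 1.66 against 0.30 in controls. The difference was 0.49 ± 0.74, and it was -0.16 without miR-126-/- mouse 3. In that mouse the mean of the 11 tested macrophage markers, each set to its own mean, was 0.27, against -0.20 to 0.29 in the other 7 mice. The part of macrophage content in the Ccl8 level was not tested.

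Ligands of CXCR2 attract neutrophils, and most of them lie in a cluster on chromosome 5 with Pf4. Of the 5 members 4 had a difference below 0, with a median of -0.34, and 0 had an unadjusted p under 0.05. Without control mouse 3 the median was -0.06 and 2 were above 0, and without miR-126-/- mouse 4 the median was -0.17 with 2 above 0. Without control mouse 1, control mouse 4 or miR-126-/- mouse 3, 0 were above 0, with medians of -0.47, -0.41 and -0.30. Without control mouse 4 or without miR-126-/- mouse 3, 1 ligand had an unadjusted p under 0.05. Cxcl5, which mesenchymal and epithelial cells release, was at 3.28, 3.83, 5.41 and 3.57 in controls and 3.76, 4.29, 4.66 and 3.83 without miR-126. Control mouse 3 was highest, the other 7 overlapped, and the difference of 0.11 ± 0.46 was 0.57 without that mouse. Cxcl1, an early neutrophil attractant also shown to act on monocyte arrest in atherosclerosis, was at 0.47, 0.79, 3.08 and 1.62 in controls and 1.65, 1.05, 1.83 and 0.86 without miR-126. Its difference of -0.14 ± 0.55 became 0.39 without control mouse 3. Cxcl2 differed by -0.34 ± 0.42 and Cxcl3 by -0.41 ± 0.24, and without control mouse 3 by -0.06 and -0.23. Cxcl3 was at 2.09 in control mouse 3 and at 1.35 to 1.40 in the other controls.

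The upstream bases of Cxcl1, Cxcl2 and Cxcl3 are shown because these neighbours peaked in the same mouse. Each holds a match to GGGNNNTTC, a 9-letter part of the site that NF-kappaB proteins bind, in the 120 bases before the RefSeq start (GRCm38.p6, plus strand, matches on either strand in capitals). The windows are chr5:90891125-90891244 for Cxcl1, chr5:90903779-90903898 for Cxcl2 and chr5:90785981-90786100 for Cxcl3.

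Cxcl1: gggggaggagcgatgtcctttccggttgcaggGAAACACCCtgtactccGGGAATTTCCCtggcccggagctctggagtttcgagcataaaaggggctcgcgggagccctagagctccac

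Cxcl2: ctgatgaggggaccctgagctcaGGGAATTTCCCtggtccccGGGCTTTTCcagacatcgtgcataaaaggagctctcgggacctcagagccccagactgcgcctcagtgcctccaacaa

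Cxcl3: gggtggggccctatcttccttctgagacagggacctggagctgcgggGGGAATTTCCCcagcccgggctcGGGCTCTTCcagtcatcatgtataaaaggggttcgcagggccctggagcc

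The 250 bases before the start held that motif in 9 of 27 ligand genes with a listed promoter (33.3%), and in 11.8% of all 32851 promoters. The first share counts genes, which had 30 promoters among them, and the second counts promoters, so the 2 are not in like units. The 9 were Ccl1, Ccl9, Ccl20, Cxcl1, Cxcl2, Cxcl3, Cxcl9, Cxcl10 and Xcl1. Of these, Cxcl9, Cxcl10 and Xcl1 were highest in other mice than control mouse 3, and Ccl1 and Ccl20 did not pass the filter. Ccl3, Ccl6, Ccl17, Ccl19 and Cxcl13 were highest in control mouse 3 and had no match in those bases. Ccl2, Ccl4, Cxcl5, Cxcl11 and Cxcl16 were also highest there but had no listed promoter, so they were not searched. Whether the motif goes with the levels was not tested. A match describes the letters and does not show binding. Among 25 tested inducers and regulators of chemokine genes, 18 were also highest in control mouse 3. Il6 stood at 3.18 there and at -1.11 to 1.05 in the other 7 mice, and Il1b at 4.89 there and at 3.0 to 4.02 elsewhere (both were chosen after their values were seen). Of these 25 genes 2 had a difference above 0 and 23 below, with a median of -0.11, and 0 had an unadjusted p under 0.05. Without control mouse 3 their median was -0.0035 and 12 were above 0. Those with the smallest p were Csf2, a growth factor of myeloid cells (-0.64 ± 0.36), Nfkb1 (-0.21 ± 0.12), Irf7 (-0.38 ± 0.25), Stat3 (-0.22 ± 0.15) and Irf1 (0.15 ± 0.13).

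**Figure D3:**
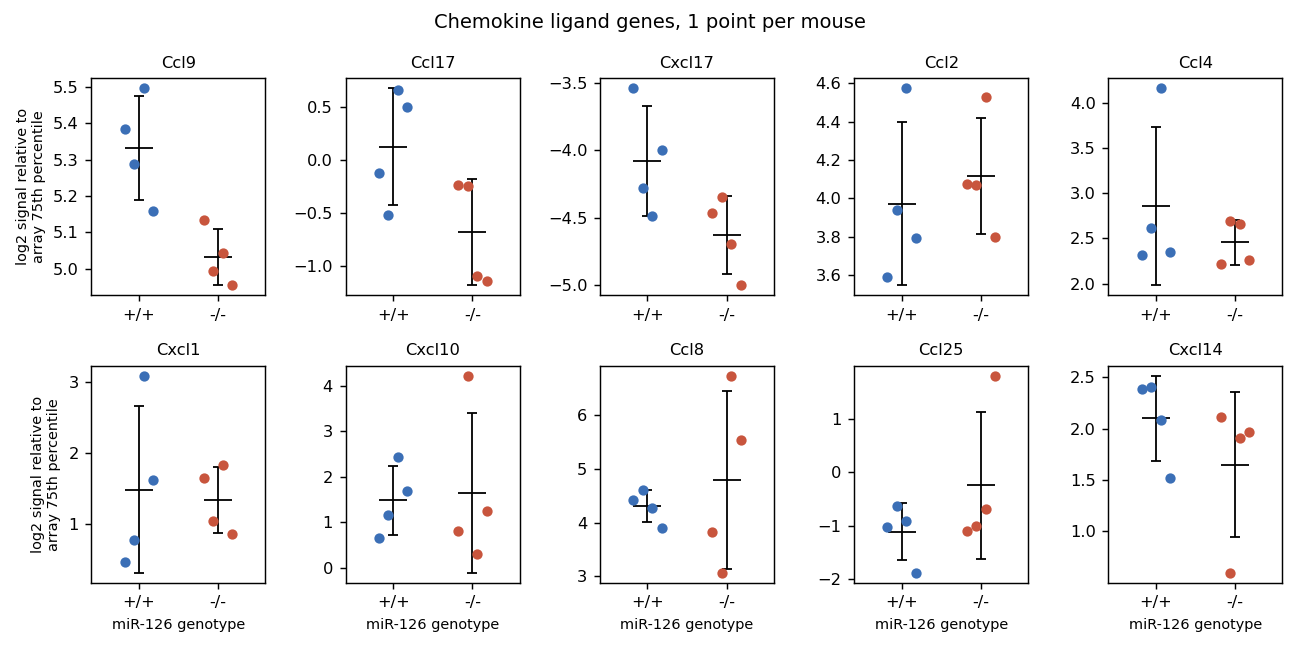
Levels of 10 chemokine ligand genes (vertical axes, log2 signal with the 75th percentile of the array at 0, a scale of its own in each panel) in miR-126+/+ and miR-126-/- mice, 1 point per mouse in replicate order. Black bars give the mean and SD of 4 mice; only the Ccl9 panel shows no overlap, and single mice lie apart for Ccl4, Cxcl10, Ccl25 and Cxcl14.

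Pf4, the platelet chemokine also known as Cxcl4, was at 5.44, 5.47, 5.64 and 5.26 in controls and 4.95, 5.62, 5.73 and 5.38 without miR-126. The miR-126-/- mice spanned the controls, and the difference of -0.03 ± 0.18 had an interval from -0.44 to 0.38. Ppbp, the precursor of the platelet CXCR2 ligand Cxcl7, differed by -0.37 ± 0.20 and did not pass (adjusted p = 0.612, limma). The 6 tested platelet and megakaryocyte markers had 3 differences above and 3 below 0.

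Interferon gamma induces the CXCR3 ligands Cxcl9, Cxcl10 and Cxcl11, which attract activated T cells and NK cells. Cxcl10 was at 0.66, 1.15, 2.43 and 1.68 in miR-126+/+ mice and 0.80, 4.21, 0.31 and 1.24 in miR-126-/- mice. Its level in miR-126-/- mouse 2 was 3.45-fold above the next, and leaving that mouse out turned the difference from 0.16 ± 0.84 to -0.70. A list of 14 interferon-induced genes, put together after these values were seen, had its highest mean, 0.78, in the same mouse, against -0.53 to 0.23 in the others. Cxcl9 was highest in a different mouse, miR-126-/- 1, at 0.75, and its second probe was highest in that mouse too. Its difference was -0.07 ± 0.51.

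The Cxcl10 promoter is shown because it carried both motifs searched, GGGNNNTTC and TTTCNNTTT, the latter a 9-letter part of the interferon-stimulated response element. The window is chr5:92348890-92349119 on the minus strand of GRCm38.p6, from RefSeq, with matches on either strand in capitals.

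Cxcl10: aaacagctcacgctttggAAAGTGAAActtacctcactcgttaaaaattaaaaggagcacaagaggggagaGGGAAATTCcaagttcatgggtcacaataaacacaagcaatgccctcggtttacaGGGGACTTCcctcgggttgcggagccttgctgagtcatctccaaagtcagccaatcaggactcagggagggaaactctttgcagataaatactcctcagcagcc

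TTTCNNTTT occurred in the 250 upstream bases of 4 of 27 ligand genes (14.8%) and of 9.37% of all promoters. These are again a share of genes and a share of promoters. The 4 genes were Ccl19, Ccl28, Cxcl10 and Cxcl14.

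Cxcl11 was represented by its brightest probe, at chr5:92788567-92788626 (mm9), and that probe may report more than this gene. It was at 7.61, 7.70, 7.86 and 7.66 in controls and 7.53, 7.68, 7.51 and 7.84 without miR-126, a narrow range with overlapping genotypes. From its base 15 the probe holds 20 bases of the B1 repeat, a short interspersed element spread through the mouse genome and its transcripts.

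B1 run in the Cxcl11 probe: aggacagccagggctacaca

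The same 20 bases occurred in 4 probes of 4 other genes on the array. The second Cxcl11 probe, at chr5:92788640-92788699, shared no such run with another probe. Its level was 1.78 to 2.20 in controls and 1.82 to 2.06 without miR-126, and its difference was -0.0047 ± 0.11. This second probe was highest in control mouse 4, while the brightest was highest in control mouse 3. How much of the first probe's signal came from Cxcl11 RNA was not tested.

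Ligands of CCR7, Ccl19 and the Ccl21 genes, steer naive T cells and dendritic cells to lymphoid tissue, and lymphatic endothelium is a main source of Ccl21. Ccl21a was at 6.85, 6.63, 6.72 and 6.82 in controls and 6.44, 6.60, 6.64 and 6.87 without miR-126. Ccl21b was at 7.0, 6.86, 7.02 and 7.09 in controls and 6.72, 6.81, 6.97 and 7.16 without miR-126. Both sets overlapped, and the probes share a run of 43 of their 60 bases, so the copies cannot be told apart by them. The differences were -0.12 ± 0.11 and -0.08 ± 0.11. The 6 lymphatic endothelial markers all had differences below 0 (0 of 6 above), with a median of -0.57 and 3 at an unadjusted p under 0.05. Their mean per mouse ran from -0.08 to 0.51 in controls and from -0.39 to -0.27 without miR-126, without overlap. The part of lymphatic content in the Ccl21 levels was not tested.

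Ccl19 was at 3.44, 3.79, 4.19 and 3.99 in controls and 4.03, 3.37, 3.68 and 4.03 without miR-126. The groups overlapped, the difference was -0.07 ± 0.21, and 2 further Ccl19 probes differed by -0.06 and -0.25. Cxcl13, the CXCR5 ligand that brings B cells into follicles, was above background on 2 of the 4 control arrays and on all 4 of the others, and passed the filter only through the latter. It was at -6.17, -6.30, -2.31 and -4.63 in controls and -4.57, -4.50, -4.0 and -3.98 without miR-126. Control mouse 3 was highest and controls 1 and 2 were lowest, and the difference of 0.59 ± 0.82 was 1.44 without mouse 3 and 0.11 without mouse 2.

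Ccl17, made by dendritic cells and a ligand of CCR4 on T cells, had the lowest difference of all members; its probe lies at chr8:97335770-97335829 (mm9). It was at -0.13, -0.52, 0.66 and 0.50 in controls and -0.24, -0.25, -1.09 and -1.14 without miR-126. Control mouse 2 lay within the range of the miR-126-/- mice, and the other controls above it. The difference was -0.80 ± 0.33, 1.75-fold, with an unadjusted p of 0.0412 and an adjusted p of 0.461 (limma). Of the 10 dendritic cell markers 8 had a difference below 0, with a median of -0.13. Their mean was -0.08 to 0.41 in controls and -0.25 to 0.12 without miR-126, and their part in the Ccl17 level was not tested. With the adipocyte marker mean as a covariate, which did not overlap between genotypes, the Ccl17 difference was -0.29.

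Ligands made chiefly by epithelia included Cxcl17, a mucosal attractant of myeloid cells, with its probe at chr7:26185079-26185138 (mm9). Cxcl17 was near background, above it on 3 control arrays and 2 of the others. It was at -3.54, -4.28, -4.49 and -4.0 in controls and -4.47, -4.34, -4.70 and -5.0 without miR-126. The groups overlapped through control mouse 3. The fitted difference was -0.55 ± 0.23 and, with normexp background correction, -0.20. As 2 miR-126-/- arrays gave no signal well above background, its size there is not well measured.

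Ccl25, a product of thymic and gut epithelium that acts through CCR9, was at -1.02, -0.64, -0.92 and -1.88 in controls and -1.09, -1.0, -0.69 and 1.80 without miR-126. A single mouse, miR-126-/- 4, lay 5.42-fold above the next, and without it the difference of 0.87 ± 0.65 was 0.19. Ccr9 was highest in that mouse too, at 1.39, against -1.31 to 0.79 in the others. Markers of thyroid, salivary gland and epithelium had a mean of 2.23 in miR-126-/- mouse 4 and of -0.52 to -0.01 in the other 7. A list of thymus genes, put together after these values were seen, had a mean of 2.85 there and of -1.56 to 0.48 elsewhere. Whether tissue beside the artery contributed to the Ccl25 level was not tested. A second Ccl25 probe, for a RefSeq non-coding transcript, was at -2.97 in that mouse, inside its range in the others.

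Ccl27a, a skin ligand of CCR10, differed by 0.21 ± 0.17, and by 0.038 without control mouse 3, which was lowest at 0.44. Its further probes differed by 0.24 and -0.0057. The 2 tested eosinophil attractants, which act through CCR3, differed in sign, with Ccl11 at -0.11 ± 0.26 and Ccl24 at 0.28 ± 0.43. Among the other ligands, Cx3cl1, a membrane-bound endothelial ligand for monocytes, differed by 0.18 ± 0.16. Cxcl16, a scavenger receptor for oxidised lipoprotein as well as a ligand, differed by -0.12 ± 0.18. Xcl1, a product of T cells and NK cells, differed by -0.30 ± 0.24. Cxcl14 was at 0.60 in miR-126-/- mouse 2 and at 1.91 to 2.12 in the other miR-126-/- mice, and its difference of -0.45 ± 0.36 was -0.10 without that mouse.

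The receptors give the other side of the pathway. Of 24 chemokine receptor genes 21 were tested, 2 with a difference above 0 and 19 below, with a median of -0.28, and 0 passed the adjusted threshold. Control mouse 3 was the highest for 14 of the 21, and without it the median was -0.07 and 9 were above 0. An unadjusted p under 0.05 was found for 3 receptors (14.3%, beside the 10.2% of all genes given above).

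Ackr1, the atypical receptor of venular endothelium and red cells that binds many inflammatory CC and CXC ligands without signalling, was at 1.70, 1.93, 1.95 and 1.57 in controls. It was at 0.56, 0.61, 1.31 and 0.93 in miR-126-/- mice, all below the lowest control. The difference was -0.94 ± 0.18 and did not pass (unadjusted p = 0.00091, adjusted p = 0.156, limma). Of the 10 endothelial markers 9 had a difference above 0, with a median of 0.21. Of 8 markers of lymph node stroma and high endothelial venules 6 had a difference below 0, with a median of -0.19 (-0.06 without control mouse 3), and 3 had an unadjusted p under 0.05. Among these were Glycam1 (-1.16 ± 0.38) and Chst4 (-1.11 ± 0.46), which serve the venules, and Cr2 of follicular cells (0.56 ± 0.23). The 6 lymphatic markers given above also lay below 0, and the part of vessel types in the Ackr1 level was not tested. Across the left-out arrays the Ackr1 difference ran from -1.09 to -0.84.

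Ccr10, a receptor of antibody-secreting cells and skin T cells for Ccl27a and Ccl28, was at -4.63, -3.87, -4.77 and -3.90 in controls and -3.58, -2.83, -2.60 and -3.06 in miR-126-/- mice. Every miR-126-/- mouse lay above every control, 1 control array was not above background, and the difference of 1.28 ± 0.28 did not pass (adjusted p = 0.196, limma). The B cell and plasma cell markers had 8 of 10 differences above 0, with a median of 0.86 and 5 at an unadjusted p under 0.05. When miR-126-/- mouse 4 was left out the median was 0.55 and 3 were at that level. Their mean was -0.55 to -0.16 in controls and -0.21 to 0.92 without miR-126. The lymphocyte marker mean was taken over the 14 T cell and NK cell and the 10 B cell and plasma cell markers together. With it as a covariate the Ccr10 difference was 1.31, and with normexp background correction 0.55. The part of antibody-secreting cells in the Ccr10 level was not tested. With the adipocyte marker mean, which did not overlap between genotypes, the Ccr10 difference was 0.30.

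Ccr2, the monocyte receptor of Ccl2, was at 2.26, 1.75, 2.15 and 2.26 in controls and 1.77, 1.49, 1.55 and 1.98 without miR-126. Only control mouse 2 lay within the miR-126-/- range, and the difference was -0.41 ± 0.16 (unadjusted p = 0.0333, adjusted p = 0.437, limma). Of 11 macrophage markers 4 had a difference above 0 and 7 below, with a median of -0.02. Without control mouse 3 it was 7 above with a median of 0.06. Without miR-126-/- mouse 3 it was 2 above with a median of -0.20, and without control mouse 2 it was 2 with -0.15. The next receptors by p were Ccr3 of eosinophils (-0.29 ± 0.17) and Cxcr2 of neutrophils (-0.80 ± 0.56).

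**Figure D4:**
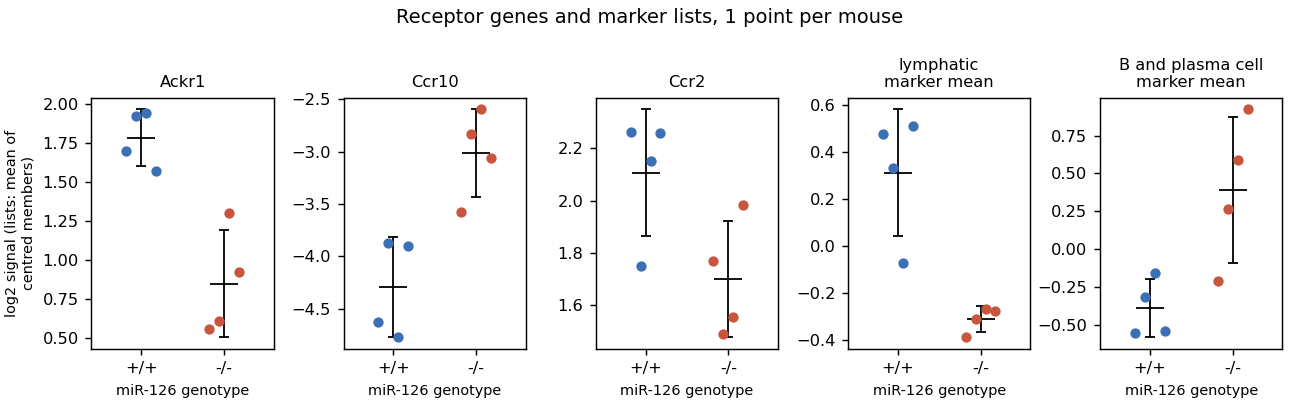
Levels of the 3 receptor genes with an unadjusted p under 0.05, and the per-mouse mean of the lymphatic endothelial and of the B cell and plasma cell markers (each marker set to its own mean over 8 mice), all in log2 units with 1 point per mouse. Black bars give the mean and SD of 4 mice; the genotypes do not overlap for Ackr1, Ccr10 and the lymphatic markers.

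Markers of other cell types were set beside these genes. All 12 adipocyte markers had a difference above 0, with a median of 1.35, and 10 had an unadjusted p under 0.05. Of 14 T cell and NK cell markers 12 had a difference above 0, with a median of 0.37. That median was 0.13 without miR-126-/- mouse 4, 0.22 without control mouse 2 and 0.68 without control mouse 3. Of 10 neutrophil markers 4 had a difference above 0, with a median of -0.02, and 7 did without control mouse 3, with a median of 0.22, or without miR-126-/- mouse 1, with a median of 0.15. Skeletal muscle markers were highest in control mouse 2, at 3.23, and in miR-126-/- mouse 1, at 3.02. Their part in the ligand levels was not tested.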

How the data were processed

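Carotid RNA of 8 mice was hybridised to 1-colour Agilent arrays (100 ng of total RNA each, per the labels' protocols). The deposited values used are the scanner's processed signal, a background-subtracted intensity made with Agilent Feature Extraction 10.7.3.1, per the file headers. From these, log2 of signal minus each array's 75th percentile over non-control spots was computed, outlier spots were left out and spots of 1 probe were averaged. Each gene took its brightest probe among those well above background on at least 3 of 4 arrays of a genotype (32484 probes, 23830 genes). The 38 ligands kept the gene names given with the arrays. They had 45 probes, of which 43 had an accession found in RefSeq. Probe positions are mm9, per the file headers.

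The test between genotypes was limma's moderated linear model (version 3.58.1, R 4.3.3), two-sided, without covariates and with 6 residual degrees of freedom, and Benjamini-Hochberg adjustment ran over all genes. The code was tested on simulated data. Arrays with the same replicate number shared a slide column. The correlation of their deviations from the genotype means was 0.20, -0.28, -0.04 and 0.0074, and the fit did not pair them. The labels give 4 mice a group; the number of arrays limits the precision.

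The ligands, role groups, gene lists and alternatives were chosen with earlier results of these data known. Values on every array are given for ligands with an unadjusted p under 0.05, without overlap of genotypes, or among the 10 brightest; other ligands are given by their fitted difference, and those shown by array beyond this (Ccl4, Cxcl1, Cxcl10, Cxcl13, Ccl25) were chosen after their values were seen. Up to 5 receptors and 5 regulators with the smallest p are named. The alternatives were normexp correction (offset 50), quantile normalization, another percentile, the deposited value table, other filters and probe rules, an intensity trend, array weights, a replicate block, marker means as covariates, and arrays or an array area left out.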

Additional observations from a re-analysis of the deposited data

Results flagged for a closer look

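In 4 of the 64 sets of 4 mice examined (32 ligands in each genotype), a single mouse lay apart from the other 3 by Dixon's test, and chance gives about 1 in 20. Ccl25 was at 1.80 in miR-126-/- mouse 4, with the nearest at -0.69. Ccl4 was at 4.16 in miR-126+/+ mouse 3, with the nearest at 2.62. Cxcl3 was at 2.09 in the same mouse, with the nearest at 1.40. Cxcl14 was at 0.60 in miR-126-/- mouse 2, with the nearest at 1.91.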

How the results depend on the processing

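The ligands had 0 calls in each setting tried. Calls over all genes ran from 0 to 71, so few that a count of 0 ligands says little in any setting. The calls were 0 with the adipocyte covariate, the replicate block, without miR-126-/- 2, and without both arrays with the most skeletal muscle signal. Ligands at an unadjusted p under 0.05 numbered 3 in the reported fit, 1 with the adipocyte and 1 with the lymphocyte marker mean as covariate (Ccl9), and 1 to 3 with an array left out (1 without miR-126-/- 4). The ligand under the adipocyte covariate was Ccl11, at -0.96 against -0.11, so none of Ccl9, Ccl17 and Cxcl17 kept that level there. The adipocyte marker mean did not overlap between genotypes, so that covariate and genotype cannot be told apart well, and these changes say little. Of the 21 receptors tested, 3 were at that level in the reported fit. With the adipocyte marker mean it was 1, with the lymphocyte marker mean 10, with the replicate block 5 and with an array left out 2 to 4. The share of all genes at that level was 10.2% in the reported fit. It was 4.07% with the adipocyte covariate, 10.9% with the lymphocyte covariate, 9.14% with the block and 7.95% to 13.5% with 1 array left out. Under the block, which also groups the arrays by slide column, 0 of all genes were called. The correlations given above showed no sign that the numbers pair the mice.

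The following differences turned sign. With the adipocyte marker mean as covariate Ccl24 was -0.56, Ccl4 0.14, Ccl5 -0.25, Ccl8 -0.49, Cxcl1 0.25, Cxcl16 0.23, Cxcl9 0.48 and Ppbp 0.21. With the lymphocyte marker mean Ccl11 was 0.033, Ccl25 -0.077, Ccl8 -0.22, Cxcl13 -0.49, Cxcl5 -0.35 and Cxcl9 0.18. With array weights Ccl19 was 0.032, Ccl5 -0.024, Cxcl1 0.31 and Cxcl9 0.055. Leaving out both arrays with the most skeletal muscle signal, Ccl11 was 0.14, Ccl12 0.15, Ccl5 -0.0033 and Pf4 0.13. With 1 array left out, ranges that crossed 0 were -0.31 to 0.036 for Ccl11, -0.39 to 0.0071 for Ccl12, -0.21 to 0.062 for Ccl19, -0.047 to 0.54 for Ccl24, -0.59 to 0.03 for Ccl4, -0.17 to 0.34 for Ccl5, -0.16 to 1.06 for Ccl8, -0.48 to 0.39 for Cxcl1, -0.70 to 0.60 for Cxcl10, -0.23 to 0.041 for Cxcl16, -0.14 to 0.57 for Cxcl5, -0.51 to 0.23 for Cxcl9 and -0.14 to 0.12 for Pf4. The cause was not tested, and the adipocyte covariate cannot be told apart well from genotype. Signals near background limit Cxcl13 and Cxcl17.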
